A study of Mus musculus with 6 samples.

Results

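Flow cytometry identifies mesenchymal and adipose progenitors by a small panel of proteins on the cell surface. The genes of 10 of these antigens, Ly6a, Thy1, Cd34, Cd44, Cd24a, Eng, Nt5e, Dpp4, Pi16 and Vcam1, were looked up by symbol among the 24421 genes of the deposited count table, and all 10 were found. The RNA was that of 3T3-L1, a line of mouse embryo fibroblasts that serves as a preadipocyte model, since it can be turned into fat cells. Ube3d knockout cells were compared with wild-type (WT) cells, with 3 libraries per genotype. All cultures were undifferentiated, in log-phase growth and kept from passing 80% confluence. The labels call the libraries biological replicates. They do not say how the knockout was made, whether the knockout cells were 1 clone or how separate the cultures were, so p-values measure only the spread between these libraries.

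Several of these antigens are held in the membrane by a glycosylphosphatidylinositol (GPI) anchor rather than a transmembrane segment. Among them are Sca-1 (Ly6a), THY1, CD24 and the ecto-nucleotidase CD73 (Nt5e). CD34 is a sialomucin, CD44 the main receptor for hyaluronan, endoglin (Eng) a co-receptor for TGF-beta and BMP ligands, and VCAM-1 (Vcam1) an immunoglobulin-type adhesion molecule bound by integrins. In mouse adipose tissue, Sca-1 and CD34 are used to gate progenitors, CD24 marks a subset able to form fat depots, and DPP4 and PI16 mark interstitial progenitors upstream of committed preadipocytes.

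The libraries held between 23767181 and 29389480 gene counts. Ube3d, listed under its older symbol Ube2cbp, had 56, 43 and 53 counts in knockout and 145, 229 and 173 counts in WT libraries. The transcriptomes differed widely: of 12947 tested genes, 61.4% were called, 30.3% as higher and 31.2% as lower in the knockout, and the median log2 fold change was 0.004. A call means an adjusted p under 0.05 in edgeR's quasi-likelihood test with Benjamini-Hochberg adjustment over all tested genes, and fold changes are knockout over WT. Fibroblast markers were abundant in every library, summing to 12479 to 12819 CPM (counts scaled to library size) in knockout and 15269 to 15353 CPM in WT libraries, with the intermediate filament gene Vim at 3856 ± 52 CPM in the knockout and 3905 ± 43 CPM in WT (SD, n = 3 each). Of 14 blood cell markers, 11 stayed below 1 CPM in every library, Adgre1, Cd3e, Kit and Tyrobp had no count, and the list summed to 15.9 to 16.4 CPM in knockout and 15.4 to 16.2 CPM in WT libraries, mostly Cd14. Endothelial markers summed to 1.43 to 2.43 CPM in knockout and 0.589 to 1.04 CPM in WT libraries, with Tie1 and Emcn at no count, and 7 of the 8 stayed below 1 CPM in every library. Vwf, the gene of von Willebrand factor, was the member that did not, at 1.27 ± 0.52 CPM in the knockout and 0.284 ± 0.049 CPM in WT (log2 2.13, SE 0.36), and it reached the count minimum only through the knockout libraries. The part of any endothelial cells in the values of antigens that endothelium also carries, among them Eng, Cd34 and Vcam1, was not tested. Epithelial markers summed to 0.321 to 0.698 CPM in knockout and 0.463 to 0.715 CPM in WT libraries, with Epcam and Krt18 at no count and Cldn7 highest.

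Of the 10 antigen genes, 8 had enough counts to test, and the panel moved in both directions. Cd24a rose in the knockout, while Ly6a, Thy1 and Cd44 fell. Cd34 was called lower too, but it could be tested only through the WT libraries, where it is higher. Eng, Nt5e and Vcam1 did not pass the test, and Dpp4 and Pi16 were close to absent in both genotypes. The 5 calls among 8 tested genes (62.5%) stand beside a background of 61.4% of all tested genes, so the share of calls is close to that of the transcriptome. Cd34 aside, 4 of 7 were called. In 6 of the 8 the libraries of the genotypes did not overlap, which held for 63.8% of all tested genes. Every knockout library was above every WT library for 2 genes, Cd24a and Nt5e (32.8% of all tested genes), and below for 4, Cd34 among them (31.0%). The median log2 fold change of the 8 genes was −0.26 and the median of its absolute value 0.53, against 0.22 over all tested genes. Both medians include Cd34. Without it, the middle gene by size of change was Thy1 (log2 −0.37), and by signed value Cd44 (log2 −0.18). These are RNA levels of bulk cultures, in which fewer cells of a kind and less RNA per cell cannot be told apart, and surface protein was not measured.

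**Figure D1:**
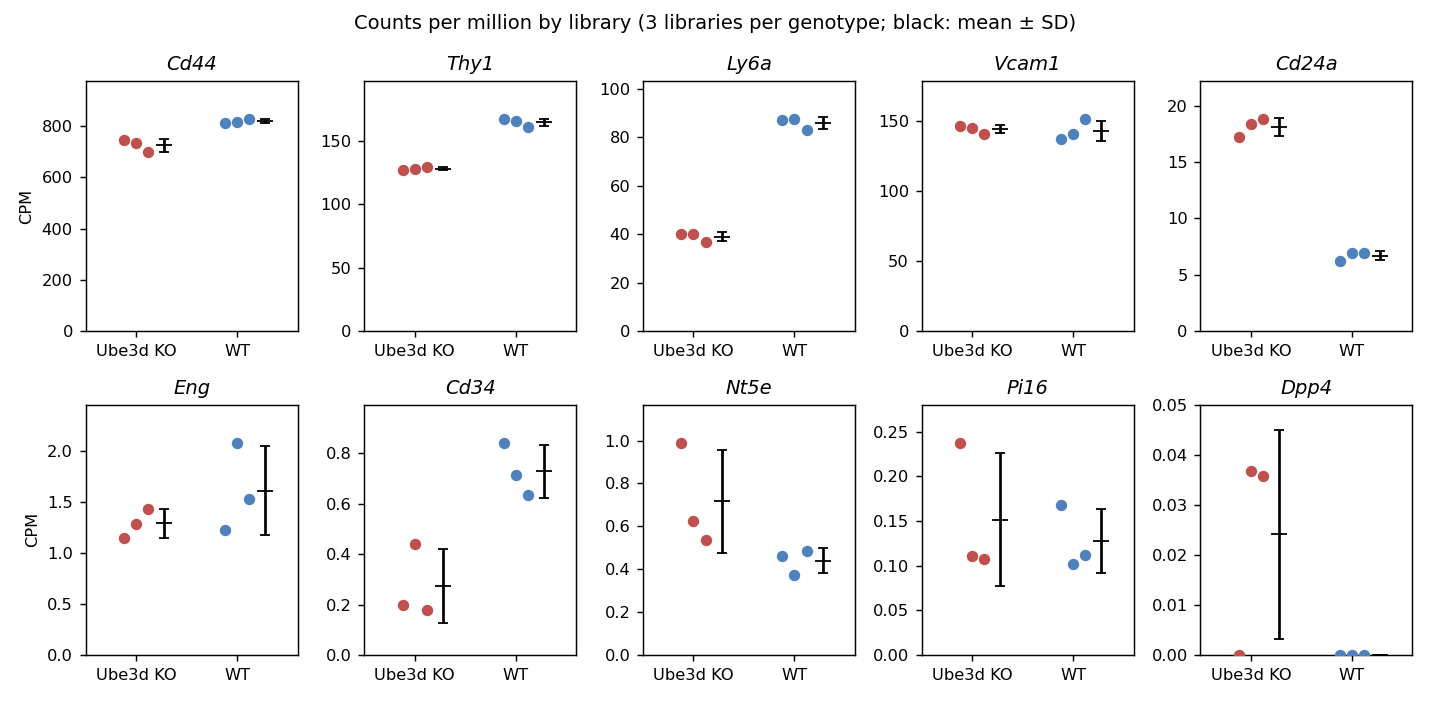
Counts scaled to library size (CPM) of each antigen gene in every library, knockout left and WT right, with the mean ± SD of 3 libraries in black and a separate axis from 0 for each gene. The genotypes separate in Thy1, Ly6a, Cd24a, Cd44, Cd34 and Nt5e, and overlap in Vcam1, Eng and Pi16.

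**Figure D2:**
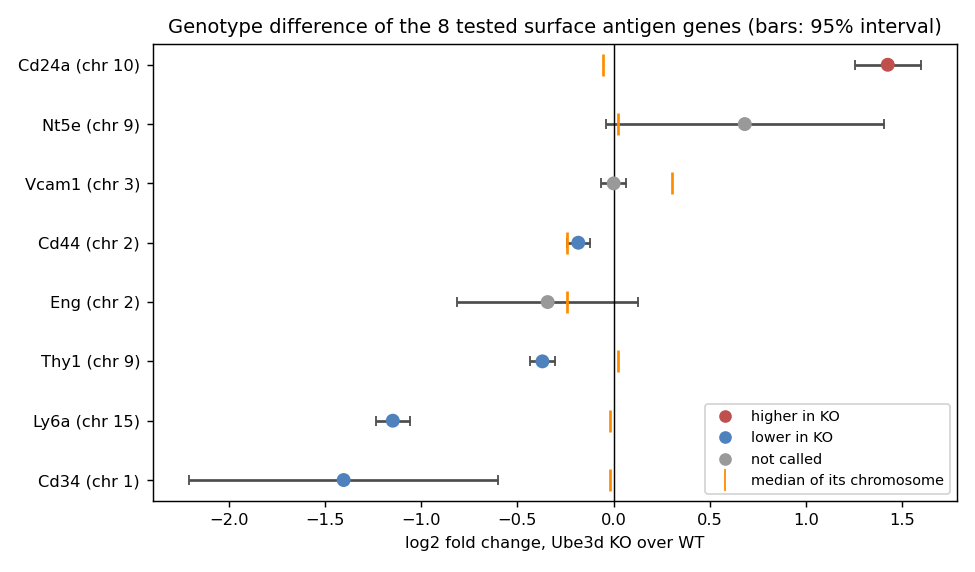
Log2 fold change of the 8 tested antigen genes, knockout over WT, with 95% intervals from the edgeR fit; the orange mark is the median of all tested genes on the same chromosome. Cd24a lies at 1.42 and Ly6a at −1.15, away from their chromosome medians, whereas the value of Cd44 lies near that of chromosome 2. Cd34 lies at −1.40 but could be tested only through the WT libraries, where it is higher.

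Ly6a encodes Sca-1, a small GPI-anchored protein with the three-finger fold of the Ly6 family. The gene lies on the minus strand of chromosome 15 at 74994877 to 74998031 (GRCm38). The knockout libraries had 40.1, 40.1 and 37.0 CPM and the WT libraries 87.3, 87.4 and 82.9 CPM. Every knockout library was below the lowest WT library by a factor of more than 2. The fall was 2.22-fold (log2 −1.15, SE 0.04, edgeR adjusted p = 4.1e-35). Close relatives of Ly6a lie beside it, and their transcripts share sequence. The first 120 coding bases of Ly6a and of its neighbour Ly6c1 are shown to illustrate how far reads can separate them. Both are from GENCODE transcripts on the minus strand of GRCm38 chromosome 15, and capitals mark the 8 positions at which they differ.
Ly6a: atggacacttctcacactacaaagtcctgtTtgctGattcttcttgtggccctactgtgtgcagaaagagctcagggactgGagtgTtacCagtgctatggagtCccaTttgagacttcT
Ly6c1: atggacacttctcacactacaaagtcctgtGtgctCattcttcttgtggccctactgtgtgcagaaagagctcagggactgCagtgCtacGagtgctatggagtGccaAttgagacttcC
The longest run without a difference is 45 bases. Over all Ly6a transcripts, 246 of 1297 distinct stretches of 50 bases (19.0%) also occurred in transcripts of other genes, 195 of them in Ly6c1. The sources used here do not say how reads with several alignments were counted, so the split between these relatives is uncertain.

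The nearest tested genes on either side of Ly6a, both of the Ly6 family, fell less. Ly6c1, which encodes a Ly6C antigen and lies upstream of Ly6a on the same strand, with 46.0 kb between the genes, had 15.5 ± 0.28 CPM in the knockout and 26.1 ± 1.3 CPM in WT (SD, n = 3 each), a fall of 0.75 on the log2 scale (SE 0.07, edgeR adjusted p = 3.1e-16). Ly6e, on the other side with a gap of 35.0 kb, had 86.0 ± 4.4 CPM in the knockout and 101.8 ± 2.2 CPM in WT, a fall of 0.25 (SE 0.04, edgeR adjusted p = 2.3e-08). Per exon length, Ly6c1 stood at 0.243 ± 0.016 of the Ly6a level in the knockout and at 0.185 ± 0.0042 in WT, so the 2 genes did not change in proportion. Further out the picture was different, and Lynx1, also of the Ly6 family, was higher (log2 0.18, SE 0.07, edgeR adjusted p = 0.030). Of the 23 tested genes within 1 Mb of Ly6a, 11 were higher and 5 lower, with a median of 0.31, and the median over chromosome 15 was −0.02.

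Of 30 further genes of the Ly6 and urokinase receptor family in the table, 7 could be tested. Of these, 2 rose and 4 fell, Ly6c1 and Ly6e included (85.7% called, median −0.25), while 15 of the 30 had no count in any library. Lypd1, among those that fell, reached the count minimum only through the WT libraries, and the counts and the median include it. Plaur, the urokinase receptor itself, rose to 80.5 ± 2.0 CPM in the knockout, against 51.2 ± 1.6 CPM in WT (log2 0.64, SE 0.04). Cd59a, an inhibitor of the complement membrane attack complex, fell to 3.74 ± 0.02 CPM in the knockout, against 5.75 ± 0.03 CPM in WT (log2 −0.63, SE 0.13). Cd59a lies on chromosome 2, whose tested genes had a median of −0.24, and the part of that shift in its value was not tested.

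**Figure D3:**
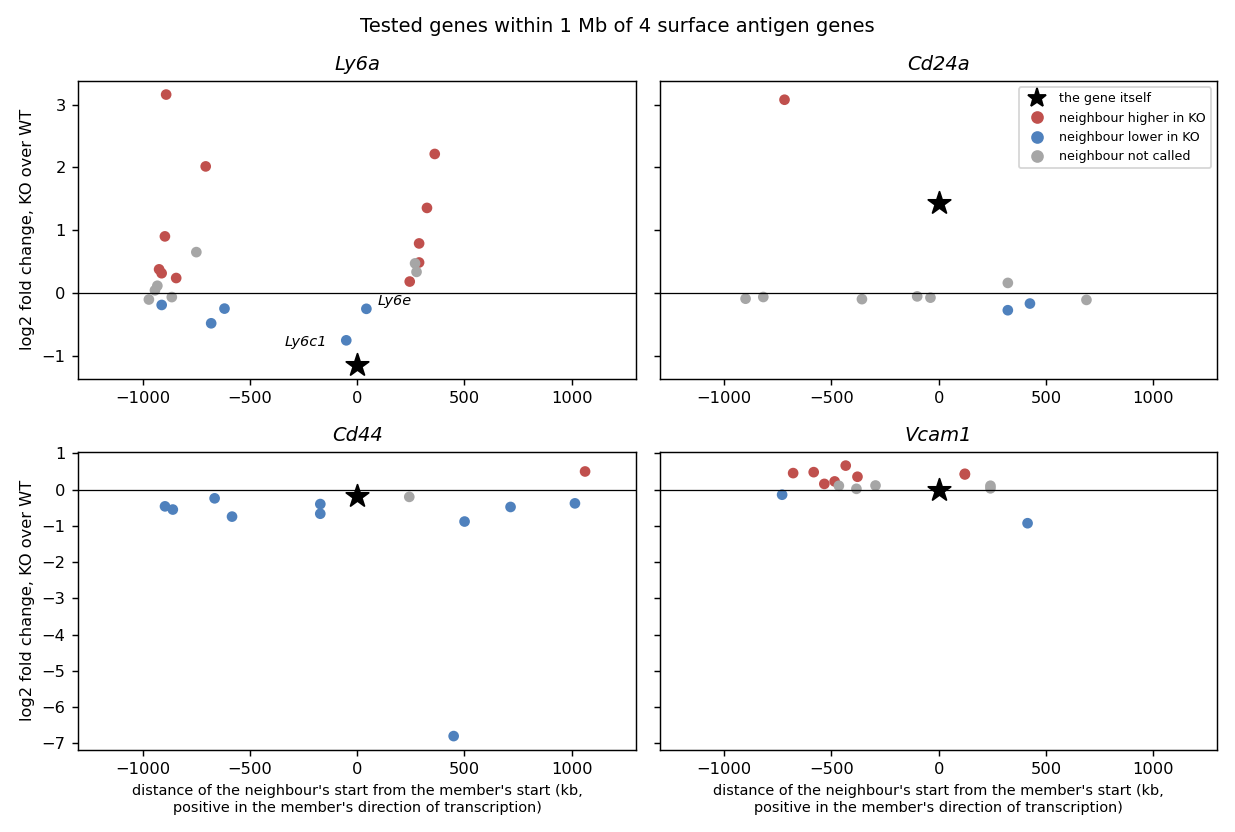
Log2 fold change, knockout over WT, of the tested genes within 1 Mb of Ly6a, Cd24a, Cd44 and Vcam1, by distance in kb between gene starts; the star is the named gene itself and colours give the call of each neighbour. Ly6a, Ly6c1 and Ly6e lie below 0 among neighbours of which 11 were higher and 5 lower, Cd24a lies above all of its 10 neighbours but 1, and most neighbours of Cd44 lie below 0; the panels of a row share the vertical axis.

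Thy1 encodes the GPI-anchored immunoglobulin-type protein CD90, on the plus strand of chromosome 9 at 44043384 to 44048579. It had 127, 128 and 129.6 CPM in knockout and 167, 165 and 161 CPM in WT libraries. The knockout libraries lay close together and all below the WT libraries. The fall was smaller than that of Ly6a, at 1.29-fold (log2 −0.37, SE 0.03, edgeR adjusted p = 7.5e-17), on a chromosome with a median of 0.02. No 50-base stretch of its transcripts occurred in another gene. The nearest tested genes on either side, Pvrl1 (log2 −0.05, SE 0.05) and Usp2 (log2 0.32, SE 0.18), were not called. The level of Ly6a per exon length was 0.528 ± 0.029 of that of Thy1 in the knockout and 0.904 ± 0.013 in WT, and was lower in every knockout library.

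THY1 binds integrins and syndecan-4 in trans and signals through SRC-family kinases. Of 9 tested genes on the list of its partners, 1 rose and 5 fell (66.7% called, median −0.20). Sdc4, the syndecan-4 gene, had 181 ± 7.8 CPM in the knockout and 275 ± 5.8 CPM in WT (log2 −0.61, SE 0.03). The integrin genes Itgb3 (log2 −0.76, SE 0.07) and Itgav (log2 −0.28, SE 0.03) fell, and so did Src (log2 −0.33, SE 0.04). Sdc4, Itgav and Src lie on chromosome 2, whose 1024 tested genes had a median of −0.24, and the part of that shift in their values was not tested. The member that rose was Itgb5 (log2 0.23, SE 0.05).

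Cd24a encodes the mouse heat-stable antigen CD24, a very short and heavily glycosylated GPI-anchored peptide. The gene lies on the plus strand of chromosome 10 at 43579169 to 43584265. Because it is the antigen that rose, its whole coding sequence of 231 bases is shown (GENCODE, GRCm38, plus strand of chromosome 10), with the start and stop codons in capitals.
Cd24a: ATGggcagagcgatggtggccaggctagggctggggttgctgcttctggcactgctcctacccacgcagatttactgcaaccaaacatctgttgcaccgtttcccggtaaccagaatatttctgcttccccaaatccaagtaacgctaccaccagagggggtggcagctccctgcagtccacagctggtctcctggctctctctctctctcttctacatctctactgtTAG
Cd24a had 17.2, 18.3 and 18.8 CPM in knockout and 6.23, 6.91 and 6.92 CPM in WT libraries. All knockout libraries were above the highest WT library by a factor of more than 2. The rise was 2.68-fold (log2 1.42, SE 0.09, edgeR adjusted p = 6.1e-24), and 4.43% of all tested genes were called with at least a doubling. Of 2510 distinct 50-base stretches, 69 (2.75%) also occurred in another annotated gene, Gm6212. Of 10 tested genes within 1 Mb, 1 was higher and 2 were lower (median −0.08). The nearest tested gene upstream on the same strand, Bend3, was not called (log2 −0.05, SE 0.05, edgeR adjusted p = 0.387), nor was 1700021F05Rik on the side of lower coordinates (log2 −0.07, SE 0.08). Qrsl1, the nearest on the other side, was lower (log2 −0.28, SE 0.10, edgeR adjusted p = 0.019), a call that 4 of the alternatives lost.

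As Cd24a rose and Ly6a fell, the Cd24a level per exon length was 0.237, 0.252 and 0.280 of the Ly6a level in knockout libraries and 0.0394, 0.0436 and 0.0461 in WT libraries. All knockout ratios lay far above all WT ratios. The lectin partners of CD24 that could be tested were Siglecg, which had 7.66 ± 0.82 CPM in the knockout and 15.9 ± 1.9 CPM in WT (log2 −1.07, SE 0.09), and Selp, which encodes P-selectin, at 8.42 ± 0.87 CPM in the knockout and 4.54 ± 0.31 CPM in WT (log2 0.88, SE 0.12).

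Nt5e encodes CD73, the GPI-anchored enzyme that converts extracellular AMP to adenosine, and lies on the plus strand of chromosome 9 at 88327609 to 88372089. It was scarce, with 25, 17 and 15 counts in knockout and 11, 11 and 13 counts in WT libraries, or 0.989, 0.625 and 0.535 CPM in the knockout and 0.463, 0.374 and 0.484 CPM in WT. The knockout libraries were all above the WT libraries, and the first of them stood apart from the others. The difference did not pass the test (log2 0.68, 95% interval −0.04 to 1.40, edgeR adjusted p = 0.096), and without knockout replicate 1 it was 0.39. Nt5e lies 1.86 Mb from Ube2cbp on the same chromosome. Of the 9 tested genes between them, 2 were higher and 4 lower (median −0.15). Next to Nt5e, Snx14 was not called (log2 −0.02, SE 0.06), while Tbx18 (log2 −0.91, SE 0.06) and, further upstream, Cyb5r4 (log2 −0.33, SE 0.06) were lower.

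The adenosine pathway around CD73 went both ways. Of 12 tested genes, 3 rose and 4 fell (58.3% called, median 0.02). Enpp1, an ectoenzyme that makes AMP from ATP, rose to 13.4 ± 0.57 CPM in the knockout, against 4.18 ± 0.49 CPM in WT (log2 1.66, SE 0.10). Ada, the adenosine deaminase gene, fell to 2.79 ± 0.29 CPM in the knockout, against 7.99 ± 0.47 CPM in WT (log2 −1.53, SE 0.13). Ahcy, the S-adenosylhomocysteine hydrolase gene, fell by 0.77 (SE 0.03) and Pnp, the purine nucleoside phosphorylase gene, by 0.68 (SE 0.06) on the log2 scale. Ada and Ahcy lie on chromosome 2. The ATP-hydrolysing partner of CD73, CD39, was close to absent, with 0 Entpd1 counts in knockout and 2 in WT libraries together, and the adenosine receptor gene Adora2b was not called (2.01 ± 0.37 CPM in the knockout and 1.78 ± 0.28 CPM in WT).

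GPI anchors are built and attached in the endoplasmic reticulum, and 29 genes of that route could be tested. Of these, 10 rose and 9 fell (65.5% called, median 0.09). Pigt and Pigk, which encode subunits of the transamidase that joins anchor and protein, moved in opposite directions. Pigt had 24.2 ± 0.98 CPM in the knockout and 34.2 ± 1.0 CPM in WT (log2 −0.50, SE 0.06), and Pigk 75.0 ± 0.11 CPM in the knockout and 58.5 ± 2.0 CPM in WT (log2 0.35, SE 0.04). Each moved in the direction of its chromosome, 2 for Pigt and 3 for Pigk, whose medians were −0.24 and 0.30. Dpm2, for a subunit of dolichol-phosphate mannose synthase and also on chromosome 2, fell by 0.40 (SE 0.06). Mppe1, for a phosphodiesterase that trims the anchor, fell by 0.70 (SE 0.11).

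Cd34, on the plus strand of chromosome 1 at 194938821 to 194961292, encodes a transmembrane sialomucin. Its counts were few, at 5, 12 and 5 in knockout and 20, 21 and 17 in WT libraries, or 0.198, 0.441 and 0.178 CPM in the knockout and 0.841, 0.715 and 0.633 CPM in WT. The genotypes did not overlap, though the knockout libraries differed among themselves by more than 2-fold. The fall was 2.65-fold (log2 −1.40, 95% interval −2.21 to −0.60, edgeR adjusted p = 0.0019), and it lay between −1.94 and −1.17 under the 13 alternatives that could test it. Cd34 reached the count minimum only through the WT libraries, so that it could be tested only because it was higher there. Its exons share 148 bases with Gm16897 on the other strand, which had 21 counts in knockout and 36 counts in WT libraries together. Since the strand setting of the counting is unknown here, reads of these genes cannot be told apart. On the sides of Cd34, Plxna2 was lower (log2 −0.33, SE 0.04) and A330023F24Rik higher (log2 0.60, SE 0.19). Podxl, which encodes the related sialomucin podocalyxin, was higher at 1.02 ± 0.18 CPM in the knockout, against 0.534 ± 0.067 CPM in WT (log2 0.91, SE 0.31, edgeR adjusted p = 0.0099), but not without knockout replicate 2 (log2 0.79, edgeR adjusted p = 0.060).

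Cd44, on the minus strand of chromosome 2 at 102811142 to 102901665, was the most abundant of the antigen genes. It had 745, 735 and 697 CPM in knockout and 812, 816 and 826 CPM in WT libraries. All knockout libraries lay below the WT libraries, by a small margin. The fall was 1.14-fold (log2 −0.18, SE 0.03, edgeR adjusted p = 1.1e-07). This is less than the median shift of its chromosome (−0.24) and of the 12 tested genes within 1 Mb (−0.47, with 1 higher and 10 lower, among them Pdhx at −0.40), and the part of the regional shift in it was not tested. With scaling from the other chromosomes than 2, 3, 5 and 12, Cd44 was still called (log2 −0.16). That setting changes only the scaling of whole libraries, so it does not separate Cd44 from the regional shift. Counts per gene do not resolve the alternatively spliced CD44 forms.

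Of 19 tested genes on the list of hyaluronan synthases and hyaluronidases, CD44 ligands, proteases and linkers, 10 rose and 6 fell (84.2% called, median 0.32). Has2, a hyaluronan synthase gene, fell to 37.8 ± 3.2 CPM in the knockout, against 60.5 ± 0.83 CPM in WT (log2 −0.69, SE 0.05), while the other hyaluronan synthase genes Has1 and Has3 rose by 0.94 (SE 0.15) and 0.80 (SE 0.12) to 9.67 ± 1.4 and 10.8 ± 0.89 CPM, against 4.94 ± 1.5 and 6.06 ± 1.6 CPM in WT. Spp1, which encodes the CD44 ligand osteopontin, rose to 668 ± 7.5 CPM in the knockout, against 389 ± 15.5 CPM in WT (log2 0.77, SE 0.03). Ezr, whose product ezrin ties CD44 to actin, fell to 191 ± 3.8 CPM in the knockout, against 251 ± 5.7 CPM in WT (log2 −0.40, SE 0.03). Ank3, which encodes the adaptor ankyrin-G, rose to 231 ± 4.1 CPM in the knockout, against 125 ± 0.48 CPM in WT (log2 0.88, SE 0.03).

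Eng encodes endoglin (CD105) and lies on the plus strand of chromosome 2 at 32646595 to 32682669. It had 29, 35 and 40 counts in knockout and 29, 61 and 41 counts in WT libraries, or 1.15, 1.29 and 1.43 CPM in the knockout and 1.22, 2.08 and 1.53 CPM in WT. The genotypes overlapped, and WT replicate 2 was the highest library. The difference did not pass the test (log2 −0.34, 95% interval −0.81 to 0.13, edgeR adjusted p = 0.204) and was −0.12 without WT replicate 2. Its exons share 61 bases with Fpgs on the other strand, which fell by 0.47 (SE 0.07). As the strand setting of the counting is unknown here, reads in the shared bases cannot be told apart. The nearest tested genes beside Eng, Ak1 (log2 −0.34, SE 0.04) and Cdk9 (log2 −0.47, SE 0.04), were called lower, as were 22 of 38 tested genes within 1 Mb (median −0.25). The part of that regional shift in the value of Eng was not tested.

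Endoglin works with the TGF-beta receptors and with the BMP9 receptor ALK1. Of 20 tested genes of these complexes and their SMADs, 9 rose and 7 fell (80.0% called, median −0.02). Acvrl1, the gene of ALK1, stood at 0.175 ± 0.064 CPM in the knockout and 1.37 ± 0.26 CPM in WT (log2 −2.95, SE 0.38, edgeR adjusted p = 4.6e-10), from 14 counts in knockout and 109 in WT libraries together. It reached the count minimum only through the WT libraries, where it is higher, and the counts and the median of the list include it. Gdf2 and Bmp10, the genes of its ligands, had no count in any library. The activin receptor gene Acvr2a fell by 0.58 (SE 0.05), the endoglin-binding cytoskeletal gene Zyx by 0.43 (SE 0.03), and Smad9, a receptor-regulated SMAD, rose by 0.50 (SE 0.07). Acvr2a lies on chromosome 2 and Smad9 on chromosome 3, whose medians were −0.24 and 0.30. The part of those shifts in their values was not tested.

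Vcam1, on the minus strand of chromosome 3 at 116110020 to 116129688, was not called, with an interval of the difference that spans a few percent to either side of no change. It had 146, 145 and 141 CPM in knockout and 137.5, 140.5 and 151 CPM in WT libraries. The knockout values lay inside the WT range. The log2 fold change was −0.0002 (SE 0.03), with a 95% interval of −0.07 to 0.07, or 0.955-fold to 1.05-fold (edgeR adjusted p = 0.996). The median was 0.30 over the 643 tested genes of chromosome 3, of which 450 were higher, and 0.16 over 15 tested genes within 1 Mb. Of the nearest, Extl2 was higher (log2 0.42, SE 0.05) and Cdc14a was not called (log2 0.12, SE 0.08). Its ratio to Cd44, per exon length, was 0.331 ± 0.005 in the knockout and 0.291 ± 0.012 in WT.

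Vcam1 transcription is known to respond to NF-kB. Of 15 tested genes on the list of its integrins, kin and NF-kB factors, 6 rose and 4 fell (66.7% called, median 0.12). Nfkbia, the NF-kB inhibitor and target gene, rose to 64.2 ± 2.4 CPM in the knockout, against 39.7 ± 0.61 CPM in WT (log2 0.68, SE 0.05). The subunit genes Nfkb2 (log2 0.35, SE 0.03) and Relb (log2 0.52, SE 0.08) rose, and Irf2 fell by 0.34 (SE 0.06). Icam1, another immunoglobulin-type adhesion gene, had 5 counts in knockout and 10 counts in WT libraries together, and Itga4, for the alpha chain of the main VCAM-1 receptor, had none.

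Dpp4 encodes the exopeptidase CD26 and lies on the minus strand of chromosome 2 at 62330073 to 62412231. It had 0, 1 and 1 counts in knockout and 0, 0 and 0 counts in WT libraries. Both genotypes are at or below a floor of 3 counts per library, which is 0.112 CPM, so no fold change is given. Beside it, Slc4a10 was higher (log2 0.85, SE 0.26) and Ifih1, which reached the count minimum only through WT, lower (log2 −1.75, SE 0.41). Of 7 tested prolyl peptidase relatives, 1 rose and 4 fell (71.4% called, median −0.15). The cytosolic genes Prep (129 ± 1.8 CPM in the knockout and 171 ± 6.2 CPM in WT, log2 −0.42, SE 0.03) and Dpp8 (156 ± 3.5 CPM in the knockout and 117 ± 4.4 CPM in WT, log2 0.41, SE 0.03) moved in opposite directions. Dpp7 and Dpp9 fell by 0.24 (SE 0.05) and 0.16 (SE 0.04). Dpp7 lies on chromosome 2, whose median was −0.24, and the part of that shift in its value was not tested. Fap, the closest surface relative, had no count.

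Pi16 encodes a CAP-domain protease inhibitor and lies on the plus strand of chromosome 17 at 29318882 to 29328902. It had 6, 3 and 3 counts in knockout and 4, 3 and 3 counts in WT libraries and did not reach the minimum for the test. The ratio of summed counts, scaled for library size, was 1.19, with an exact 95% interval of 0.472 to 3.08 that covers counting error only. At this depth the counts do not exclude any ratio within that interval. Its nearest neighbours BC004004 (log2 0.44, SE 0.05) and Mtch1 (log2 0.13, SE 0.03) were higher. Its CAP relatives Glipr2 (log2 −0.64, SE 0.04) and Glipr1 (8.49 ± 0.54 CPM in the knockout and 10.5 ± 0.38 CPM in WT, log2 −0.32, SE 0.09) were the only tested members of that family, and both fell.

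Gene programmes of adipose stroma, which in mouse tissue are named for DPP4, ICAM1 and CD142, were described as lists. Of 13 tested genes of the interstitial DPP4+ progenitor, 2 rose and 7 fell (69.2% called, median −0.40). Mfap5 and Creb5, among those that fell, reached the count minimum only through the WT libraries. The counts and the median include both. Without them, the middle gene was Anxa3 (log2 −0.24, SE 0.03). Fbn1, the fibrillin gene on chromosome 2, fell to 62.2 ± 0.85 CPM in the knockout, against 370 ± 6.5 CPM in WT (log2 −2.58, SE 0.03), Cd248, the endosialin gene, to 52.6 ± 1.9 CPM in the knockout, against 95.9 ± 2.4 CPM in WT (log2 −0.88, SE 0.04), and Fn1 by 0.40 (SE 0.03), while Pcolce2 rose to 16.0 ± 1.2 CPM in the knockout, against 4.49 ± 0.09 CPM in WT (log2 1.82, SE 0.10). Of 11 tested genes of the ICAM1+ committed preadipocyte, 3 rose and 5 fell (72.7% called, median −0.14). Col15a1, among those that fell, likewise reached the count minimum only through the WT libraries, and the counts and the median include it. Dlk1, the gene of the preadipocyte antigen Pref-1, rose by 1.12 (SE 0.03) and Apoe by 1.80 (SE 0.15), while the lipase gene Lpl fell by 1.31 (SE 0.04) and Fabp4 by 1.83 (SE 0.20), to 1.00 ± 0.11 CPM in the knockout, against 3.57 ± 0.26 CPM in WT. Of 7 tested genes of CD142+ regulatory stroma, 1 rose and 4 fell (71.4% called, median −0.80). F3, the gene of CD142 itself, fell to 21.9 ± 0.40 CPM in the knockout, against 37.8 ± 0.26 CPM in WT (log2 −0.80, SE 0.06), and Adam12 to 8.95 ± 0.42 CPM in the knockout, against 26.6 ± 1.6 CPM in WT (log2 −1.58, SE 0.07). Igfbp3 had 2 counts in knockout and 509 in WT libraries (ratio 0.0039, exact 95% interval 0.00047 to 0.014), and Abcg1 had 4 in knockout and 35 in WT libraries (ratio 0.114, 0.0293 to 0.318). All knockout counts of both genes came from replicate 1, the other knockout libraries having none, and the intervals cover counting error only. Both could be tested only through the WT libraries, and the counts and the median of the CD142+ list include them. Without them, the middle gene of that list was Rspo2 (log2 −0.49, SE 0.34), which was not called.

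The other antigens used to type mesenchymal cells were divided as well. Of 21 tested genes, 6 rose and 8 fell (66.7% called, median −0.001). Cspg4, among those that rose, reached the count minimum only through the knockout libraries, and the counts and the median include it. The PDGF receptor genes Pdgfrb (134 ± 3.8 CPM in the knockout and 216 ± 4.2 CPM in WT, log2 −0.70, SE 0.03) and Pdgfra (195 ± 4.2 CPM in the knockout and 283 ± 5.9 CPM in WT, log2 −0.55, SE 0.03) fell, and the tetraspanin gene Cd9 rose (251 ± 1.2 CPM in the knockout and 186 ± 6.1 CPM in WT, log2 0.43, SE 0.03). Itgb1, the gene of CD29, was not called (865 ± 8.9 CPM in the knockout and 859.8 ± 25 CPM in WT, log2 −0.0015, SE 0.03), and neither was Alcam, the gene of CD166 (116 ± 2.3 CPM in the knockout and 115 ± 3.8 CPM in WT, log2 −0.0015, SE 0.03). The matrix genes on the fibroblast list moved in both directions, with Dcn higher (187 ± 1.2 CPM in the knockout and 33.4 ± 1.4 CPM in WT, log2 2.48, SE 0.04) and Col1a1 and Col1a2 lower (log2 −1.18 and −0.67, SE 0.03 each). Mature adipocyte genes stayed low in both genotypes, with 1 Adipoq count in the knockout and 1 in WT libraries together, and of the 3 tested, Pnpla2, a lipase gene, was higher (log2 0.31, SE 0.09), Fabp4 lower as above, and Lipe not called. Of the blood cell list, Cd68 was called (3.83 ± 0.77 CPM in the knockout and 2.30 ± 0.77 CPM in WT, log2 0.71, SE 0.18).

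**Figure D4:**
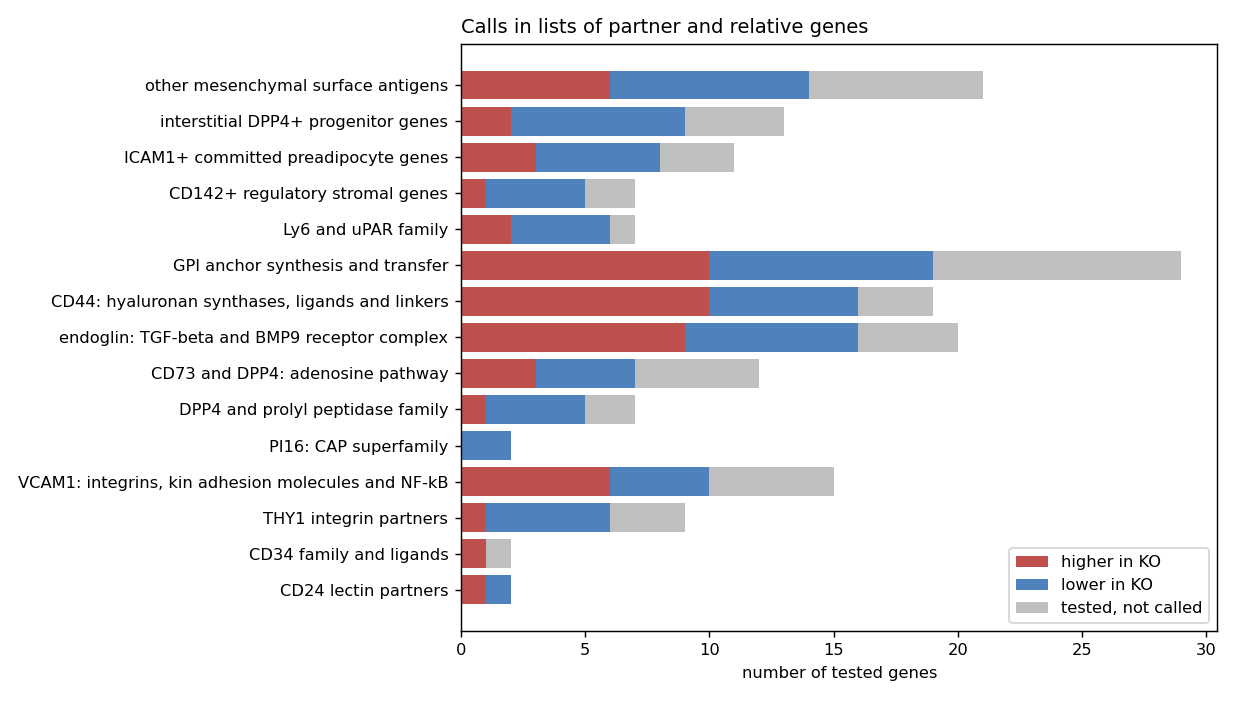
Number of tested genes called higher, called lower or not called in the knockout, for each list of partners, relatives and progenitor programmes of the antigen genes. No list moved in 1 direction throughout except the CAP family, which has only 2 tested genes, and over all tested genes 30.3% were higher and 31.2% lower. Genes that could be tested only through the libraries of 1 genotype are counted.

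Scaled to exon length and library size (RPKM), the antigens fell into a higher and a scarce class. Cd44 led in both genotypes, at 128 ± 4.5 RPKM in the knockout and 145 ± 1.3 RPKM in WT, which is rank 433 of 17192 genes with a count in the knockout and rank 406 of 16895 in WT. Thy1 followed at 73.8 ± 0.77 RPKM in the knockout and 94.8 ± 1.7 RPKM in WT. In the knockout Vcam1 came next at 42.4 ± 0.83 RPKM and then Ly6a at 39.0 ± 1.8 RPKM, with ranges that did not overlap. In WT the order was turned, with Ly6a at 85.7 ± 2.5 RPKM above Vcam1 at 42.1 ± 2.1 RPKM. Cd24a came below these in both, at 9.97 ± 0.46 RPKM in the knockout and 3.68 ± 0.22 RPKM in WT, and its rank among all genes was 6003 in the knockout and 8966 in WT. The scarce class, Eng, Nt5e, Cd34, Pi16 and Dpp4, stayed under 0.6 RPKM in every library. Within it Eng was highest in both genotypes, Nt5e stood above Cd34 in the knockout with overlapping ranges, and Cd34 above Nt5e in WT without overlap.

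**Figure D5:**
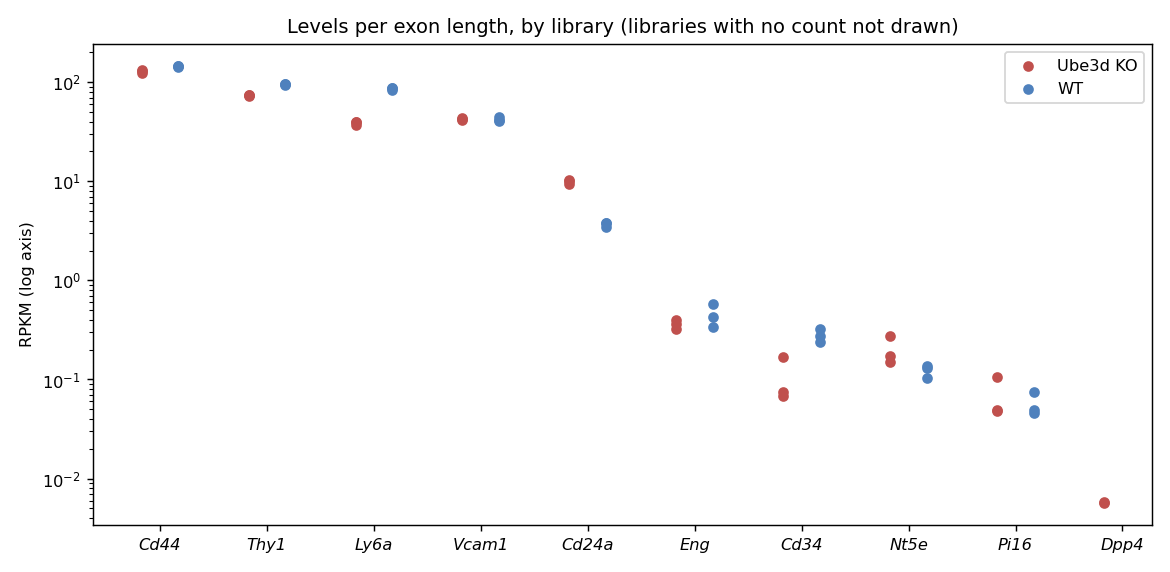
Level of each antigen gene per exon length in every library, in RPKM on a log axis, knockout left and WT right for each gene; libraries with no count are not drawn. The 5 genes of the higher class lie between 3.43 and 146 RPKM and the 5 scarce ones below 0.6 RPKM, and Ly6a lies above Vcam1 in WT but below it in the knockout.

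RefSeq promoter sequences of build GRCm38.p6 were matched for 6 of the 10 genes, Cd34, Cd44, Eng, Nt5e, Dpp4 and Pi16. The 250 bases before the start of Cd44, Cd34 and Nt5e are shown because they contrast an abundant gene with scarce ones that lay on opposite sides of WT in the knockout. The difference of Nt5e did not pass the test, and Cd34 could be tested only through the WT libraries. Whether these sequences bear on level or direction was not tested. Capitals mark the GC box GGGCGG, read on either strand. Cd44 is at chr2:102901666-102901915 on the minus strand, Cd34 at chr1:194938571-194938820 and Nt5e at chr9:88327359-88327608, both on the plus strand.
Cd44: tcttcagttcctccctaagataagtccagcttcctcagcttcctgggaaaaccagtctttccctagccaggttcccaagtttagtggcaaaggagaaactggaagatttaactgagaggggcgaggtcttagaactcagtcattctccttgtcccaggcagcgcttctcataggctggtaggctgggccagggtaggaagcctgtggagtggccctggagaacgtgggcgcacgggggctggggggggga
Cd34: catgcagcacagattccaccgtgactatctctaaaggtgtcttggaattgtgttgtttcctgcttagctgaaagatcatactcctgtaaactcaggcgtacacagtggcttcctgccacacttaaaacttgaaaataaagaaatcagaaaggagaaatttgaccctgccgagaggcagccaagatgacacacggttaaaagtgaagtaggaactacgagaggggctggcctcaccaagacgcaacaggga
Nt5e: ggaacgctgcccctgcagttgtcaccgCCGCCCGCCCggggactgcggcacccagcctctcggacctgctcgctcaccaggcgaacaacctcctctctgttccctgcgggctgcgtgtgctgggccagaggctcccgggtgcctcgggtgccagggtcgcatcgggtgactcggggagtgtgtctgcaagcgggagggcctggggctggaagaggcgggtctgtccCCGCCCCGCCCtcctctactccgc
Nt5e was the richest in G and C, at 72.0% with 21 CG dinucleotides and 4 GC boxes that overlap in pairs, against 56.4% with 5 for Cd44 and 46.4% with 6 for Cd34. A GC box occurred in 32.7% of 32851 promoters of the same length. The TATA box TATAAA occurred in 12.4% of promoters, the CCAAT box CCAAT in 33.8%, the AP-1 motif TGANTCA in 6.75% and the STAT motif TTCNNNGAA in 7.02%, and none of the 4 was in these 3 windows. Of the other windows, that of Dpp4 held a TATA box and that of Pi16 a CCAAT box. Motifs were searched on both strands. Such matches describe letters and not bound sites.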

How the data were processed

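For 6 libraries of stranded RNA depleted of ribosomal RNA, per the labels' protocols, the authors deposited whole-number read counts per gene, with exon positions and a gene length in bases. The submitters' processing notes name STAR 2.6.1d, featureCounts 1.6.3 and mm10 or GRCm38. They are silent on strand and on reads with several alignments. Groups and replicate numbers are those of the sample titles. A second deposited table, of counts in regions without gene names, was not used here.

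Counts were fitted with edgeR 4.0.16 (R 4.3.3) by the quasi-likelihood method with robust dispersion, TMM factors and no covariate, for knockout against WT. The default expression filter asked for 10 counts in enough libraries and for 15 in all, which left 12947 genes for the Benjamini-Hochberg adjustment. Standard errors are log2 fold changes over the root of F, and 95% intervals use the moderated degrees of freedom. CPM and RPKM rest on the gene counts of a library. Libraries of 1 genotype differed by more than sampling noise (chi-square per gene 2.02 to 6.21), so none was treated as a duplicate. In simulated counts over 12947 genes, set up as knockout against WT, 72% of 50 genes changed 1.25-fold, 90% of 50 changed 1.5-fold, 94% of 50 changed 2-fold and 98% of 50 changed 4-fold were called, with 21 false calls among the rest. The share of changed genes was far smaller than the 61.4% called in the data, so these rates need not hold there. Shared stretches and coding sequences are from GENCODE vM21 and promoters from RefSeq.

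The antigen genes, the gene lists and the tests were chosen with earlier results of these data known. Named are the antigen genes, Ube3d, the nearest tested neighbours and, per list, at most 4 called genes taken by adjusted p, or the highest gene of a marker list without a call (Cldn7, 0.324 ± 0.11 CPM in the knockout and 0.267 ± 0.13 CPM in WT). Itgb5, Has1, Has3, Itgb1, Alcam, Adora2b, Vim and genes at or near no count were picked after their values were seen. So were Mfap5, Creb5, Col15a1, Lypd1 and Cspg4, named for the group through which they reached the count minimum. Lynx1 was also picked after its values were seen, and Anxa3 and Rspo2 are named as middle genes of their lists. The alternatives changed the size factors (RLE), the count filter (none, or 1 CPM in 3 libraries), the tool (DESeq2 1.42.0, limma-voom of limma 3.58.1), the design (replicate number as a block), the gene set (no Rn45s), the chromosomes used for scaling (without 2, 3, 5 and 12) and the libraries (each left out in turn). Spp1, Pdgfra and Anxa3 lie on chromosome 5, and Dlk1 and Nfkbia on chromosome 12. Medians of these chromosomes are not given, and the part of any chromosome-wide shift in the values of these genes was not tested. Tables and plots were made in Python 3.11.15.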

Additional observations from a re-analysis of the deposited data

How the results depend on the processing

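Under all 14 alternatives the 8 tested antigen genes kept their side of the threshold wherever they could be tested. Cd34 and Nt5e have no value with a filter at 1 CPM in 3 libraries, which leaves 1 antigen gene higher and 3 lower; the other alternatives gave 1 higher and 4 lower. Log2 values ranged from −1.18 to −1.11 for Ly6a, −0.39 to −0.35 for Thy1, −1.94 to −1.17 for Cd34, −0.20 to −0.16 for Cd44 and 1.38 to 1.46 for Cd24a, and from −0.49 to −0.12 for Eng, 0.39 to 0.85 for Nt5e and −0.03 to 0.04 for Vcam1. The number of genes called ranged from 7027 (DESeq2) to 8196 (no filter). Same-numbered libraries did not deviate together (correlations of −0.029, −0.033 and −0.032), so the numbers do not pair the libraries. With the replicate number as a block, 7816 genes were called, with 1 antigen gene higher and 4 lower. Among the other genes named by rule the calls of Podxl (without knockout replicate 2) and Qrsl1 (in 4 alternatives) were lost, and none changed direction while called. At these depths genes of a few counts per library, as Pi16, Dpp4, Cd34 and Nt5e, carry wide intervals.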
